A study of Mus musculus with 8 samples.

Results

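Endothelial cells (EC) in G2 phase or mitosis were picked from the deposited table of counts of the adult mouse heart by the transcripts they held. A cell was taken as EC if it held at least 1 UMI (unique molecular identifier, a tag that marks 1 captured transcript) of Pecam1, Kdr or Cdh5 and none of Ptprc, a leukocyte gene, or Rgs5, a pericyte gene. An EC was placed in G2 or mitosis if it held a UMI of at least 3 of the 7 genes Cenpf, Cdc20, Ccnb2, Ube2c, Cenpa, Birc5 and Prc1. By this rule 1454 of 24881 EC were in G2 or mitosis, out of 31028 cells deposited in all. They were set against 18799 EC called non-cycling here, which held no UMI of those 7 genes, of Mki67 or of Top2a, and against 2411 S phase EC, which held at least 3 of Mcm3, Mcm5, Mcm6, Pcna, Rrm2, Tyms and Slbp and fewer than 3 of the 7 G2 and mitosis genes. The last 2 classes overlap, since 1318 of the non-cycling EC (185 healthy and 1133 MI) also met the S phase rule, and the name non-cycling says only that those 9 genes were not seen. A further 3535 EC fell in none of these classes. The 7 genes therefore describe how the cells were chosen and were not tested.

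The study asked how the resident endothelium of the heart responds to myocardial infarction (MI). All 8 mice were adult Pdgfb-iCreERT2-R26R-Brainbow2.1 animals, in which tamoxifen switches on a Confetti fluorophore in cells with an active Pdgfb promoter. All received a single dose of 150 mg/kg tamoxifen into the peritoneum. In 4 mice the left anterior descending coronary artery was permanently ligated 14 days after tamoxifen, and ventricles were taken 7 days post-MI, which was 21 days after tamoxifen. The 4 healthy controls had tamoxifen and no ligation, so surgery itself was not controlled for. Cells were sorted as CD31+, Confetti+ and podoplanin-, which leaves out lymphatic and unlabelled endothelium, and 1 10X Chromium 3' library was made per mouse.

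A dividing cell copies its DNA in S phase, checks it in G2, and then separates the chromosomes in mitosis. Entry to mitosis is driven by cyclin B with the kinase Cdk1. Exit is driven by the anaphase-promoting complex, which with its activator Cdc20 and its ubiquitin carrier Ube2c marks cyclins for destruction. Adult cardiac endothelium divides rarely in the absence of injury.

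Library totals ran from 6764977 to 8793655 UMIs in healthy mice and from 15865234 to 27244947 UMIs in MI mice, over 2750 to 5109 cells. There were 2041 cell barcodes that occurred in both Healthy 228 and Healthy 239, and 2030 of those pairs had 90% or more of their UMIs on the same genes. Between Healthy 227 and Healthy 228 it was 316 barcodes, with 301 such pairs. Those copies were dropped, which removed 18 G2 or mitosis cells from Healthy 228 and 9 from Healthy 227. With the copies kept, the mean healthy share of EC in G2 or mitosis was 1.11% instead of 1.01%. Of the cells kept, 26 of 29 G2 or mitosis cells in Healthy 239 and 10 of 13 in Healthy 228 carried a shared barcode, so the mouse they came from cannot be told, and these 2 libraries may not be independent samples. With both copies dropped, a choice made after seeing the data, 3 such cells were left in each of the 2 mice, which took both out of the fits below. Depth and condition cannot be told apart, because every MI library was deeper than every healthy one.

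Of the 3 genes that define EC here, at least 1 had to be present in each cell, so their levels describe the choice and are no check of it. Pecam1, an adhesion molecule of EC junctions, was found in 96.0% of healthy and 98.2% of MI cells in G2 or mitosis, and Cdh5, the cadherin of those junctions, in 90.9% and 97.5%. Kdr, the receptor VEGFR2, was found in 74.7% of healthy cells, with 55.2% in the lowest mouse, and in 86.3% of MI cells. Defining markers of pericytes and smooth muscle summed to between 0 and 41.6 UMIs per 1000000 UMIs (CPM) over the 8 mice, and those of fibroblasts to between 0 and 27.6 CPM, where CPM is the share of all UMIs of a mouse's cells of that class. Lymphatic markers, which the podoplanin- sort should leave out, summed to 11.1 to 68.5 CPM in 7 mice and to 508 CPM in MI 256, and their part in the results was not tested. For 14 leukocyte markers the sum was 27.6 to 100.2 CPM in the healthy mice and 284 to 741 CPM in the MI mice. In non-cycling EC of the same mice the leukocyte sum was higher in every mouse, at 64.3 to 429.8 CPM in healthy and 556 to 1706 CPM in MI mice. A UMI of a leukocyte or fibroblast gene was present in 7.69% to 24.1% of the healthy and in 71.1% to 86.5% of the MI cells in G2 or mitosis, and in 56.4% to 81.0% of all MI EC. The part of such transcripts in the results below was not tested except where a value without those cells is given.

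Division was much more frequent post-MI. The share of EC in G2 or mitosis was 1.12% in Healthy 227 (24 of 2138 cells), 0.943% in Healthy 228 (13 of 1378), 0.884% in Healthy 239 (29 of 3280) and 1.09% in Healthy 240 (33 of 3021). It was 12.5% in MI 244 (493 of 3944 cells), 8.76% in MI 250 (391 of 4466), 8.95% in MI 255 (319 of 3566) and 4.92% in MI 256 (152 of 3088). Healthy mice lay close together, MI mice were spread widely, and the groups did not overlap. Exact binomial 95% intervals, which cover counting error only, ran from 0.503% to 1.67% over the healthy mice and from 4.19% to 13.6% over the MI mice. The mean was 1.01 ± 0.115% (SD, n = 4) in healthy and 8.78 ± 3.10% (SD, n = 4) in MI mice, a ratio of 8.69 (exact permutation test, two-sided, p = 0.029, the smallest that 4 against 4 mice allow).

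**Figure D1:**
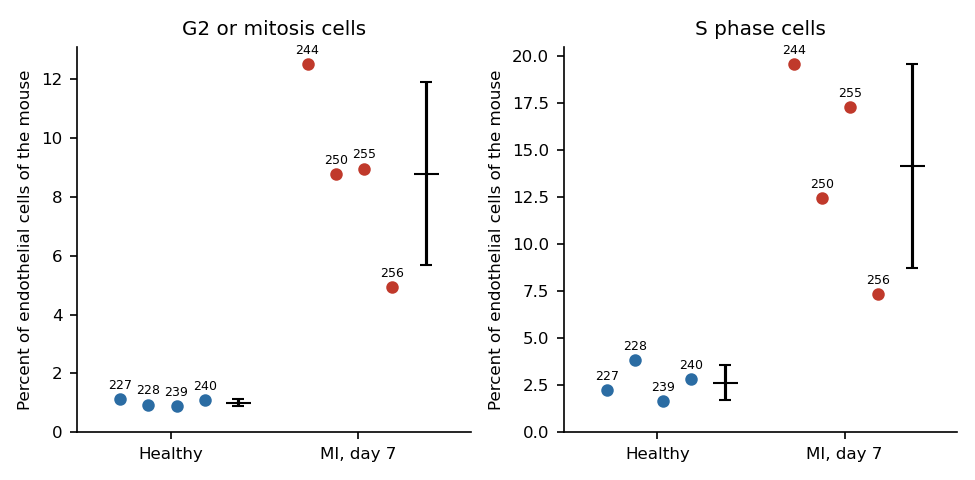
Share of EC in G2 or mitosis (left) and in S phase (right), in percent of all EC of a mouse, with 1 numbered point per mouse for 4 healthy (blue) and 4 MI (red) mice and bars for the mean and SD. In the left panel the healthy mice lie between 0.884% and 1.12%, and the MI mice between 4.92% and 12.5%.

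Because a deeper cell has more chance of showing 3 of the 7 genes, each cell was also thinned at random to 1000 UMIs. The mean share was then 0.608% in healthy and 4.29% in MI mice, a ratio of 7.06 (exact permutation p = 0.029). This left out 524 healthy EC and no MI EC with fewer UMIs. At 2000 UMIs, which left out 4524 healthy and 656 MI EC, the means were 1.31% and 6.44% and the ratio fell to 4.92 (exact permutation p = 0.029). The whole rule was applied to the thinned counts, so cells that had lost their UMIs of Ptprc or Rgs5 came in as EC. MI 244, for example, had 4082 EC at 2000 UMIs and 3944 before thinning. The part of such cells in these shares was not tested. When cells holding leukocyte or fibroblast transcripts were set aside, a choice made after seeing the data, the means were 0.963% and 5.73% (exact permutation p = 0.029). Without cells above the 95th percentile of UMIs, called the deepest cells below, they were 0.485% and 7.54%, a ratio of 15.5 (exact permutation p = 0.029). Such cells were 48.3% to 61.5% of the healthy and 15.6% to 26.3% of the MI cells in G2 or mitosis. With both copies of shared barcodes dropped the healthy mean was 0.666 ± 0.511% (SD, n = 4), with 0.262% in Healthy 228 and 0.186% in Healthy 239, and the ratio was 13.2 (exact permutation p = 0.029). With any single healthy mouse left out the groups still did not overlap. The exact permutation p was then 0.0571, since a split that set the highest MI values against all others differed by more. The Rgs5-positive cells of the same libraries, with at least 5 UMIs of that pericyte gene, passed the same threshold of 3 genes in 0.321% of healthy (1 of 312, median 3733.5 UMIs) and 4.50% of MI cells (15 of 333, median 5164 UMIs), against median depths of 2092 and 4126 UMIs in EC.

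EC in S phase were also more frequent post-MI. Their share was 2.64 ± 0.936% (SD, n = 4) in the healthy group and 14.2 ± 5.43% (SD, n = 4) post-MI, with an exact permutation p of 0.029. For each S phase cell there were 0.500, 0.245, 0.537 and 0.388 cells in G2 or mitosis in the healthy mice and 0.639, 0.703, 0.518 and 0.670 in the MI mice. This ratio averaged 0.418 ± 0.131 in healthy and 0.632 ± 0.0807 in MI mice, the ranges overlapped, and the exact permutation p was 0.0571. Of the 1454 cells, 838 also held at least 3 of the 7 S phase genes.

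Most of the chosen cells were far from the threshold. In MI mice 207 EC held exactly 3 of the 7 genes, 171 held 4, 194 held 5, 234 held 6 and 549 held all 7. Just outside the threshold, 591 MI EC held 2 of the genes, and 2890 held 1. In healthy mice 45 EC held all 7 genes, 15 held 3, and 30 held 2. Both groups therefore had a rise at the upper end of the scale after a low point at 4 or 5 genes. Cells with 6 or 7 of the genes made up 60.8 ± 1.66% (SD, n = 4) of those chosen in the healthy group and 59.1 ± 5.54% (SD, n = 4) post-MI, a difference of -1.72 percentage points (exact permutation p = 0.83). Mki67, the Ki-67 antigen of dividing cells, which did not choose these cells, was found in 95.3% of MI EC with all 7 genes, in 38.2% of those with 3 and in 14.2% of those with 2. The cells with all 7 were also the deepest, with a median of 9296 UMIs in MI mice against 7029 at 3 genes, and depth moves with the number of genes seen.

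**Figure D2:**
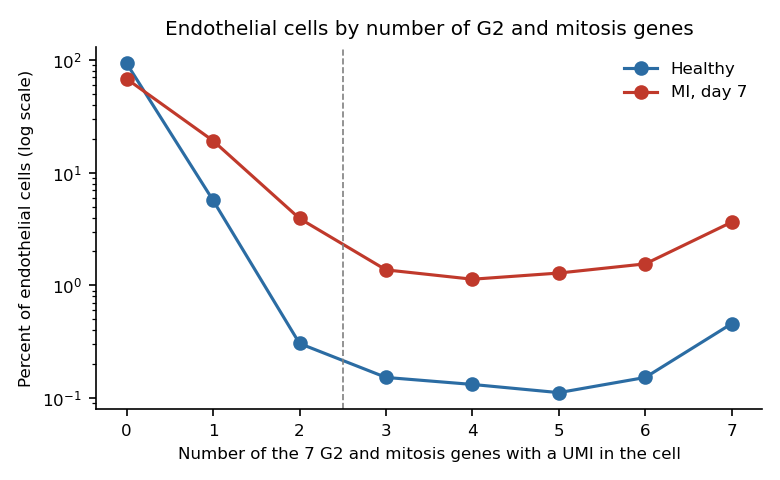
Percent of all EC (log axis) by how many of the 7 G2 and mitosis genes they held, for healthy (blue) and MI (red) mice pooled, with a dashed line below the threshold of 3 genes. Shares fall up to 4 or 5 genes and then rise to 0.458% of healthy and 3.64% of MI EC that held all 7.

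The levels of the 7 genes that chose the cells are given as a description. Cdc20, the activator of the anaphase-promoting complex, was at 656, 567, 909 and 445 CPM in the healthy and 481, 614, 620 and 671 CPM in the MI cells in G2 or mitosis. Cenpf, a protein of the outer kinetochore, averaged 836 ± 259 CPM in healthy and 627 ± 134 CPM in MI mice, and Birc5, the survivin subunit of the chromosome passenger complex, 617 ± 142 and 643 ± 71.5 CPM (SD, n = 4 each). Ube2c, the ubiquitin carrier of that pathway, averaged 848 ± 150 and 614 ± 121 CPM. Ranges of the groups overlapped for each of these 4 genes. For Prc1, which bundles the microtubules of the midzone, they did not, with 673 ± 103 CPM in healthy and 451 ± 62.1 CPM in MI mice. The share of cells with a UMI ran from 68.0% (Ube2c in MI mice) to 88.4% (Birc5 in MI mice) over the 7 genes, so no gene alone picked out the class.

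Promoters of mitotic genes are known for the cell cycle genes homology region, whose core letters are TTTGAA or TTCAAA, and for CCAAT boxes, read as ATTGG on the other strand. Windows from 250 bases before to 50 bases after the start site were taken from RefSeq (GRCm38.p6), and the sequences below are shown for genes of mitotic entry and of the spindle described in the next paragraphs, with Cdc20 as one of the 7 choosing genes and Mcm6 as a gene of S phase for contrast. Capitals mark those 6 and 5 letters on either strand, with overlapping matches counted, and the last 50 bases of each lie after the start.
Cdc20, chr4:118437294-118437593, minus strand: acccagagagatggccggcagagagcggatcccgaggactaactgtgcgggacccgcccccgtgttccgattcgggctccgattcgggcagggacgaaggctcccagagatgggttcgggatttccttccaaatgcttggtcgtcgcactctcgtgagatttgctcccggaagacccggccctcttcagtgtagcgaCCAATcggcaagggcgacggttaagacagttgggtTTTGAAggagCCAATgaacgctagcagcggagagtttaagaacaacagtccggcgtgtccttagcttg
Hmmr, chr11:40733388-40733687, minus strand: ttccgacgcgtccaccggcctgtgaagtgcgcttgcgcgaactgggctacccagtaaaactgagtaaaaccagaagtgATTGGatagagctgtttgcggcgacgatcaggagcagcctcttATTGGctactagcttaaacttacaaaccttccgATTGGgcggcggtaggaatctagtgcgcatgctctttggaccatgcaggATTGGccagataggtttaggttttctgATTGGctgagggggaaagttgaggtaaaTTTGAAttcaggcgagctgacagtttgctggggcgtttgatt
Kif11, chr19:37376132-37376431, plus strand: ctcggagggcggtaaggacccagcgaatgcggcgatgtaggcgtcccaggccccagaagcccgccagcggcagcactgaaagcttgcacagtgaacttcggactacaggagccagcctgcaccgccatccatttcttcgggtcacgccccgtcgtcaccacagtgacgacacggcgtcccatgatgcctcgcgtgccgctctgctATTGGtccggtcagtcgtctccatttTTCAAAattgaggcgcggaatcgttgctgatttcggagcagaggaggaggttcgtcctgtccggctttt
Plk1, chr7:122159185-122159484, plus strand: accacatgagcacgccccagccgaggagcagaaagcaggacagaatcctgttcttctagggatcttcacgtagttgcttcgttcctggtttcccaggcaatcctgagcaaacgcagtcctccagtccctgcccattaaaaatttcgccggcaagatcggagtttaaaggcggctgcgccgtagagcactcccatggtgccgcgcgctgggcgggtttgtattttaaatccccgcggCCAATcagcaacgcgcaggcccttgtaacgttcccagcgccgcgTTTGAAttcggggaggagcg
Ccnb1, chr13:100786437-100786736, minus strand: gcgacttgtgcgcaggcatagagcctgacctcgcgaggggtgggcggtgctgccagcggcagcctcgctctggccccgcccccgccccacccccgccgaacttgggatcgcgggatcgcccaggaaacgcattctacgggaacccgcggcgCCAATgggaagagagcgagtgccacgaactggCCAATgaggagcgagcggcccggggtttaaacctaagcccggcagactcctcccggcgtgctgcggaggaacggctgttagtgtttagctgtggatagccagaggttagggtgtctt
Mcm6, chr1:128359656-128359955, minus strand: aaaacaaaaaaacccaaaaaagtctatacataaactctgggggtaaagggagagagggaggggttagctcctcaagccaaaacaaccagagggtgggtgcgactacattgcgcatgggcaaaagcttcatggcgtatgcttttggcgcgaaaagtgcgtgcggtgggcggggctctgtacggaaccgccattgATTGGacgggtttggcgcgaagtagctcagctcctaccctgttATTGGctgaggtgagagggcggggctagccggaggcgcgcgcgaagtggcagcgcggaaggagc
Cdc20, Hmmr, Kif11 and Plk1 each held the homology region letters once, and Ccnb1 and Mcm6 did not hold them. CCAAT letters were found 5 times in Hmmr, 2 times in Cdc20, Ccnb1 and Mcm6, and once in Kif11 and Plk1. Of 27025 genes with a window, 20.2% held the homology region letters, 41.1% held CCAAT letters and 7.97% held both. Among 87 of 115 genes of the 4 G2 and mitosis lists that had a window, 52 (59.8%) held the homology region letters, 62 (71.3%) held CCAAT letters and 42 (48.3%) held both. Among 36 of 49 DNA replication genes with a window, 6 (16.7%) held the homology region letters and 23 (63.9%) held CCAAT letters. A match describes the letters in the window and was not tested as a binding site.

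Against non-cycling EC of the same mice, 2334 of 10816 genes tested (21.6%) were higher in cells in G2 or mitosis and 2594 (24.0%) were lower, at an adjusted p of 0.05 by edgeR's quasi-likelihood test on UMIs summed per mouse, with the mouse as a block. The median log2 difference over all genes tested was -0.04. When the 1318 cells that also met the S phase rule were left out of the non-cycling EC, a choice made after seeing the data, 2409 genes were higher and 2663 lower, and 97.5% of the calls were kept. Genes of the machinery of mitosis share their phase with the 7 choosing genes, so their values describe the class and are no independent evidence for it. Of 23 mitotic kinases, cyclins and their regulators tested, 22 were higher and 1 lower (median 5.42), of 28 genes of the chromosome passenger complex, kinetochore and spindle checkpoint 28 were higher (median 5.65), of 36 genes of the spindle, kinesins and cytokinesis 36 were higher (median 5.92), and of 24 genes of condensin, cohesin and mitotic chromatin 24 were higher (median 3.63).

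Ccnb1, the cyclin B1 that partners Cdk1, was at 186, 233, 327 and 197 CPM in the healthy and 212, 278, 289 and 253 CPM in the MI cells in G2 or mitosis. In non-cycling EC it was at no more than 0.636 CPM in any healthy mouse and at 2.71 to 3.91 CPM in the MI mice. The classes were wide apart in all 8 mice (log2 difference 6.75 ± 0.28, SE, edgeR adjusted p = 1.57e-07). Plk1, the polo kinase of mitotic entry, was at 88.9 to 164 CPM in cells in G2 or mitosis and at 0 to 2.09 CPM in non-cycling EC (6.68 ± 0.17, edgeR adjusted p = 1.1e-17). Hmmr, a protein of the spindle poles, was at 147 to 338 CPM against 0 to 1.27 CPM (7.99 ± 0.27, edgeR adjusted p = 3.08e-09). For Kif11, the kinesin that pushes the spindle poles apart, the values were 74.3 to 248 CPM against 0 to 1.56 CPM (7.05 ± 0.17, edgeR adjusted p = 3.81e-24).

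Pttg1, securin, which holds separase inactive until anaphase, was the exception among the regulators. It was at 124, 44.4, 86.9 and 32.8 CPM in healthy and 76.0, 89.6, 81.8 and 92.1 CPM in MI cells in G2 or mitosis, against 162, 137, 139 and 123 CPM and 91.1, 121, 107 and 121 CPM in non-cycling EC. Each mouse was lower in the dividing cells (log2 difference -0.45 ± 0.10, edgeR adjusted p = 0.000834).

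DNA replication genes were still high, since 47 of 47 tested were higher than in non-cycling EC (median 2.24, and 2.84 without the non-cycling EC that also met the S phase rule). Mcm6, a subunit of the replicative helicase, was at 48.3 to 159 CPM in cells in G2 or mitosis, 30.5 to 74.7 CPM in non-cycling EC and 135 to 202 CPM in S phase EC. Outside these lists, some genes with at least 50 CPM were near 0 in non-cycling EC, which were chosen to lack transcripts of dividing cells, so their values describe the classes. Hist1h2ap, a replication-dependent histone, was at 40.5 to 925 CPM in cells in G2 or mitosis and at 2.11 CPM or less in non-cycling EC, and Hist1h2ak at 20.9 to 483 CPM and 3.58 CPM or less. Neil3, a DNA glycosylase, was at 83.5 to 267 CPM and 1.36 CPM or less, the cohesin acetyltransferase Esco2 at 58.2 to 201 CPM and 1.22 CPM or less, and Mxd3, a MAD family partner of Max, at 112 to 229 CPM and 2.46 CPM or less. Histone genes share long stretches of sequence, and the counts of Hist1h2ap and Hist1h2ak could have been split between copies.

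**Figure D3:**
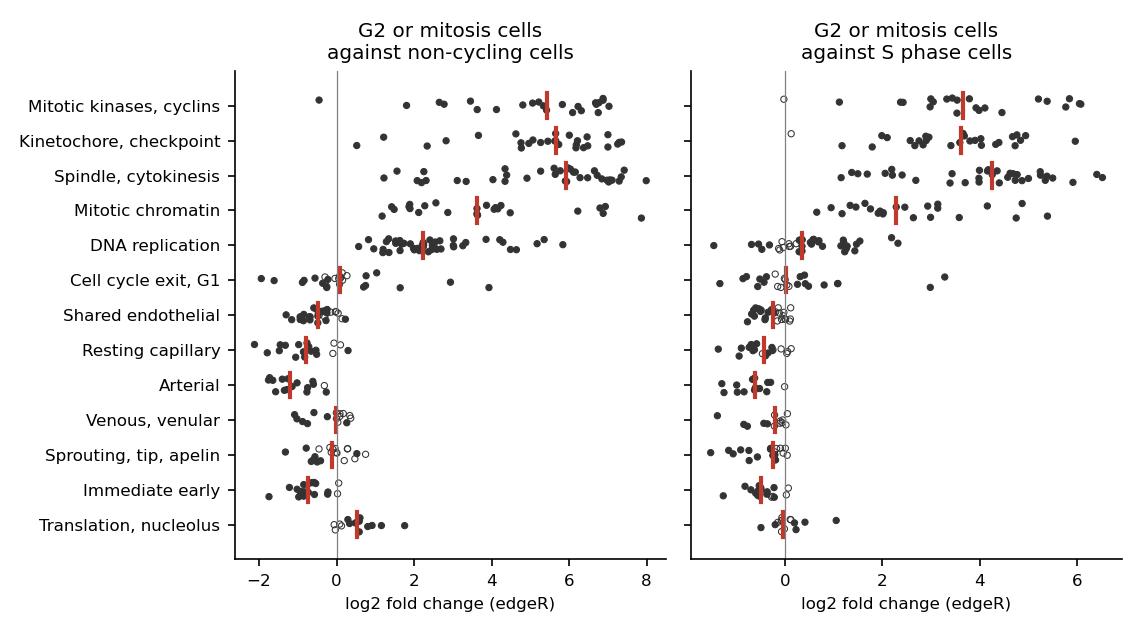
Log2 difference of cells in G2 or mitosis from non-cycling EC (left) and from S phase EC (right) for each gene of the lists, with filled points for genes called at an adjusted p of 0.05, open points for the others and a red bar at the median of the list. In the left panel the mitotic lists have medians of 3.63 to 5.92, and the shared endothelial, resting capillary and arterial lists have medians of -0.48, -0.79 and -1.20.

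Genes of cell cycle exit and G1 were divided, with 7 of 27 higher and 8 lower, which is near the 21.6% and 24.0% of all genes (median 0.08, range over 22 alternatives -0.06 to 0.08). Cdkn1c, the inhibitor p57, was at 138, 133, 46.8 and 60.9 CPM in the healthy and 48.5, 78.9, 39.1 and 68.2 CPM in the MI cells in G2 or mitosis. In non-cycling EC it was at 681, 512, 466 and 458 CPM and at 144, 268, 125 and 264 CPM. Dividing cells were lower in every mouse (log2 difference -1.94 ± 0.14, edgeR adjusted p = 4.92e-08). Ccnd2, the cyclin D2 of G1, was at 40.1 to 89.6 CPM against 178 to 276 CPM, with no overlap between the classes (-1.61 ± 0.10, edgeR adjusted p = 1.8e-14). The inhibitors Cdkn2c (p18, 3.93) and Cdkn2d (p19, 2.94) were higher, as were Cdk2 (1.04), Cdk4 (0.76) and the retinoblastoma relative Rbl1 (1.64). Cdkn1b, the inhibitor p27, was at 55.6 to 200.1 CPM in cells in G2 or mitosis and 35.1 to 99.2 CPM in non-cycling EC (0.75 ± 0.10, edgeR adjusted p = 1.01e-07), a call that was lost without the mouse as a block (0.42, edgeR adjusted p = 0.291).

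Endothelial genes took a smaller share of the UMIs of cells in G2 or mitosis. Of 26 shared endothelial genes, 19 were lower and 1 higher than in non-cycling EC (median -0.48), of 18 resting capillary genes 14 were lower and 1 higher (median -0.79), and of 16 arterial genes 15 were lower (median -1.20), beside the 24.0% of all genes that were lower. Against non-cycling EC within the depth range of the dividing cells, and with each mouse left out, these 3 medians stayed below 0, with ranges over 22 alternatives of -0.53 to -0.33, -1.02 to -0.48 and -1.50 to -1.01. That range narrowed the gap in depth and did not close it, with means of 2909 to 3733 UMIs per non-cycling cell against 5161 to 6922 per dividing cell in healthy mice, and 4144 to 5903 against 7713 to 8741 in MI mice. Without cells holding leukocyte or fibroblast transcripts, 17 of 26, 14 of 18 and 13 of 14 genes tested were lower.

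Cxcl12, the chemokine ligand of Cxcr4, was at 235, 211, 227 and 272 CPM in the healthy and 223, 182, 152 and 220 CPM in the MI cells in G2 or mitosis. In non-cycling EC it was at 1574, 1230, 1560 and 1448 CPM and at 732, 556, 569 and 954 CPM. No mouse's dividing cells reached the lowest value of the non-cycling cells, and the dividing cells of the groups overlapped (log2 difference -2.12 ± 0.17, edgeR adjusted p = 7.73e-06). Aqp7, a glycerol channel of capillaries, showed the same order, at 49.9 to 108 CPM against 142 to 462 CPM (-1.79 ± 0.16, edgeR adjusted p = 2.13e-06). Cd36, the fatty acid translocase, was at 1463, 1311, 835 and 993 CPM in healthy and 1166, 1282, 876 and 1084 CPM in MI cells in G2 or mitosis, against 3727, 2711, 2263 and 2553 CPM and 1910, 1984, 1345 and 2451 CPM in non-cycling EC. It was lower within each of the 8 mice (-1.05 ± 0.14, edgeR adjusted p = 0.000245), although its lowest non-cycling value, 1345 CPM in MI 255, lay below the highest value of the dividing cells. Rgcc, a cell cycle regulator abundant in capillaries, was at 179 to 435 CPM against 557 to 1146 CPM (-1.48 ± 0.23, edgeR adjusted p = 0.00104). Fabp5, a fatty acid binding protein, was the capillary gene that was higher (0.30 ± 0.07, edgeR adjusted p = 0.000387), and this call was lost without the mouse as a block (edgeR adjusted p = 0.0514) and without the deepest cells (0.15, edgeR adjusted p = 0.267).

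Among arterial genes, Hey1, a target of Notch, was at 20.7, 44.4, 33.4 and 4.68 CPM in the healthy and 35.6, 21.5, 35.5 and 25.6 CPM in the MI cells in G2 or mitosis. In non-cycling EC it was at 94.5, 92.0, 204 and 177 CPM and at 98.6, 102, 84.3 and 99.4 CPM. No value of the dividing cells reached the non-cycling ones (log2 difference -1.76 ± 0.19, edgeR adjusted p = 2.36e-05). Gja4, the connexin 37 of arterial junctions, was at 0 to 6.90 CPM in healthy and 24.3 to 65.2 CPM in MI cells in G2 or mitosis, against 47.0 to 128 CPM and 102 to 151 CPM (-1.65 ± 0.22, edgeR adjusted p = 0.000324). Sox17, a transcription factor of arteries, was lower in every mouse too (-1.35 ± 0.16, edgeR adjusted p = 4.52e-05). Gja5, connexin 40, did not pass the test (-0.31 ± 0.25, edgeR adjusted p = 0.349), but it was called by DESeq2 (-0.89, adjusted p = 0.0379), without the deepest cells and without cells holding leukocyte or fibroblast transcripts (-0.62 and -1.69, edgeR adjusted p = 2.65e-05 and 0.000175).

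Of the shared endothelial genes, Ly6c1, a surface antigen of the microvasculature, was at 1774, 1322, 1216 and 1086 CPM in the healthy and 1542, 1615, 1312 and 1424 CPM in the MI cells in G2 or mitosis, and at 2303 to 4221 CPM in non-cycling EC. Every value of the dividing cells was below every value of the non-cycling cells (log2 difference -1.16 ± 0.13, edgeR adjusted p = 3.64e-05). Flt1, the receptor VEGFR1, was lower in each of the 8 mice (-1.30 ± 0.25, edgeR adjusted p = 0.00348). So were Epas1, the hypoxia-inducible factor HIF-2α (-0.94 ± 0.10, edgeR adjusted p = 3.14e-09), and Emcn, endomucin (-0.70 ± 0.08, edgeR adjusted p = 4.2e-08). Tie1, a receptor of the angiopoietin system, was at 378 ± 84.6 CPM in healthy cells in G2 or mitosis and 377 ± 14.9 CPM in healthy non-cycling EC (SD, n = 4 each), and over all 8 mice it did not pass the test (-0.15 ± 0.08, edgeR adjusted p = 0.117), while it did in 5 of 22 alternatives: in the MI mice alone (-0.14, edgeR adjusted p = 0.03), at thresholds of 2 or 4 genes, and with the shared barcodes all kept or all dropped (-0.21 to -0.18, edgeR adjusted p = 0.017 to 0.0382).

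**Figure D4:**
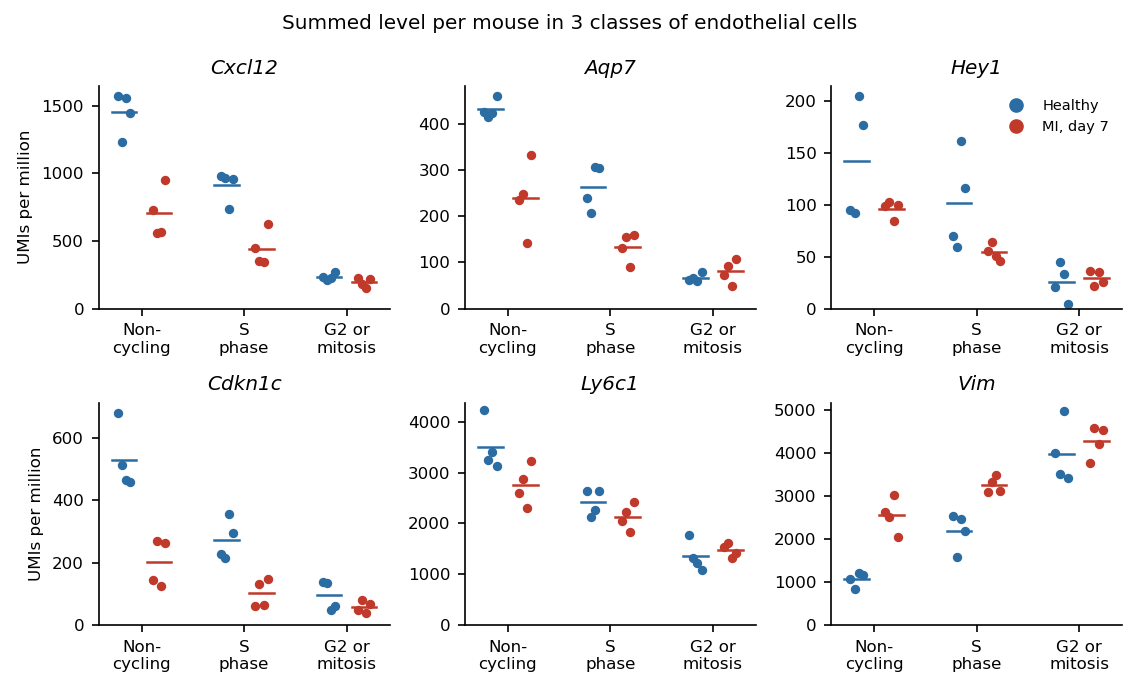
CPM of Cxcl12, Aqp7, Hey1, Cdkn1c, Ly6c1 and Vim in non-cycling EC, S phase EC (1318 cells are in both of these classes) and cells in G2 or mitosis, with 1 point per mouse (blue healthy, red MI) and a line at each group's mean. The first 5 genes fall from non-cycling over S phase to G2 or mitosis, while Vim, in healthy mice, rises from a mean of 1072 over 2191 to 3977 CPM.

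Venous and sprouting genes did not move as groups. Of 15 venous and venular genes 6 were lower and 1 higher (median -0.00), and of 20 sprouting, tip cell and apelin genes 7 were lower and 1 higher (median -0.12), beside 24.0% of all genes lower and 21.6% higher, and both medians changed sign among the alternatives. Vwf, von Willebrand factor, was at 6.90 to 13.4 CPM in healthy and 46.9 to 104 CPM in MI cells in G2 or mitosis, against 33.2 to 49.3 CPM and 92.9 to 195 CPM (log2 difference -1.02 ± 0.12, edgeR adjusted p = 9.45e-08, and 0.217 without the mouse as a block). Esm1, a tip cell proteoglycan, was lower in each of the 8 mice (-1.32 ± 0.14, edgeR adjusted p = 1.61e-09). Apln, the apelin ligand of angiogenic EC, was at 55.2, 111, 281 and 342 CPM in healthy and 199, 164, 122 and 179 CPM in MI cells in G2 or mitosis, and at 37.1 to 71.1 CPM and 96.5 to 162 CPM in non-cycling EC. Its difference did not pass the test (0.75 ± 0.27, edgeR adjusted p = 0.0587), but it did in 9 of 22 alternatives, among them without Healthy 240 (0.55, edgeR adjusted p = 0.0468) and without MI 255 (0.96, edgeR adjusted p = 0.0375).

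With each cell thinned to 1000 UMIs, 13.3 ± 2.50% of MI cells in G2 or mitosis held Apln (SD, n = 4 mice), against 13.3 ± 2.52% of S phase and 7.99 ± 1.72% of non-cycling MI EC (without thinning 45.5%, 41.7% and 21.2%). Cd36 was found in 61.6 ± 5.91%, 72.3 ± 7.80% and 77.8 ± 8.59% of these classes (without thinning 96.0%, 97.1% and 95.6%). Gja4 was found in 2.72 ± 1.26%, 6.59 ± 1.65% and 8.85 ± 1.24% (without thinning 13.0%, 18.9% and 18.9%). These shares are descriptions at equal depth and were not tested.

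Stress and translation genes moved in opposite directions. Of 19 immediate early and dissociation response genes, 17 were lower and none higher (median -0.73, -0.89 to -0.58 over 22 alternatives), beside 24.0% of all genes lower. Hspa1a, an inducible heat shock protein, was at 104, 478, 321 and 243 CPM in the healthy and 429, 629, 195 and 315 CPM in the MI cells in G2 or mitosis, against 1238, 1827, 1363 and 949 CPM and 946, 1461, 576 and 1100 CPM in non-cycling EC. Each mouse was lower in the dividing cells (log2 difference -1.74 ± 0.24, edgeR adjusted p = 0.000536). Fos, the AP-1 subunit, was lower by less (-1.02 ± 0.23, edgeR adjusted p = 0.00892), and its call was lost without the deepest cells (edgeR adjusted p = 0.0875). Of 14 translation and nucleolus genes, 10 were higher and none lower (median 0.53), beside 21.6% of all genes higher. Ncl, nucleolin, was at 324, 400, 428 and 356 CPM in healthy and 449, 352, 388 and 427 CPM in MI cells in G2 or mitosis, above every non-cycling value of 204 to 304 CPM (0.58 ± 0.08, edgeR adjusted p = 1.35e-07). The GTPase Ran, which also acts in building the spindle, had the largest difference of that list (1.76 ± 0.07, edgeR adjusted p = 1.1e-19).

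Of 15 endothelial-to-mesenchymal genes 3 were higher and 5 lower (median -0.20), beside 21.6% and 24.0% of all genes. Vim, the intermediate filament vimentin, was at 4003, 3523, 4971 and 3414 CPM in the healthy and 3767, 4594, 4221 and 4540 CPM in the MI cells in G2 or mitosis. In non-cycling EC it was at 1075, 838, 1220 and 1153 CPM and at 2632, 2509, 3030 and 2043 CPM. The dividing cells of the 2 groups overlapped and were above every non-cycling value (log2 difference 1.26 ± 0.20, edgeR adjusted p = 0.00128). Zeb2, a repressor of epithelial genes, was lower (-1.37 ± 0.22, edgeR adjusted p = 6.6e-06). Of 18 interferon response genes 1 was higher and 5 lower (median -0.27), and of 14 glycolysis genes 5 were higher and 4 lower (median -0.09), beside the same shares of all genes. The glycolysis genes called ranged from -1.29 for Aldoa, aldolase A (edgeR adjusted p = 1.05e-06), to 0.76 for Tpi1, triose phosphate isomerase (edgeR adjusted p = 4.7e-10).

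Leukocyte and erythroid markers were lower as well. Of 11 leukocyte markers tested 11 were lower (median -0.86), of 6 erythroid and platelet markers 5 (median -3.18), of 3 fibroblast markers 3 (median -2.70) and of 2 pericyte and smooth muscle markers 1, beside 24.0% of all genes lower. Over 22 alternatives 0 to 12 leukocyte and 1 to 6 erythroid and platelet markers were lower. For fibroblast and for pericyte and smooth muscle markers it was 1 to 8 and 0 to 2 over 21 alternatives. Of 6 cardiomyocyte and 3 lymphatic markers edgeR called none in either direction. At an unadjusted p under 0.05 there were 0 cardiomyocyte and 1 lower lymphatic markers, the counts that DESeq2 called too, and limma-voom called 0 of both. In MI 256 the lymphatic sum was 508 CPM in cells in G2 or mitosis and 136 CPM in non-cycling EC. The β-globin gene Hbb-bt was at 0 to 30.0 CPM in cells in G2 or mitosis and 97.2 to 528 CPM in non-cycling EC (log2 difference -4.05 ± 0.14, edgeR adjusted p = 1.02e-18). The summed erythroid markers were 131 to 256 CPM in healthy and 81.8 to 1325 CPM in MI cells in G2 or mitosis, against 2139 to 5758 CPM and 1377 to 6436 CPM in non-cycling EC. Dividing cells were deeper, with a mean of the median UMIs per cell of 5693 against 2166 in healthy and 7217 against 3680 in MI mice, and the rule itself favours deep cells. The share of mitochondrial UMIs was lower in cells in G2 or mitosis in 4 of 4 MI mice (differences of -0.483 to -0.225 percentage points, exact sign-flip p = 0.125, the smallest that 4 pairs allow) and, over all 8 mice, in 7 (mean difference -0.0990 percentage points, exact sign-flip p = 0.461).

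Against S phase EC, the cells most like them, 1415 of 7609 genes tested (18.6%) were higher in G2 or mitosis and 1706 (22.4%) lower (median over all genes -0.04). These counts depended on single mice, since leaving out MI 244, MI 250, MI 255 or MI 256 gave 925, 909, 908 and 977 genes higher and 943, 892, 896 and 998 lower. The mitotic lists were higher here too, with medians of 3.66 for kinases and cyclins (21 of 22 higher), 3.62 for the kinetochore (27 of 28), 4.26 for the spindle (35 of 35) and 2.29 for mitotic chromatin (23 of 23). Of 38 DNA replication genes 25 were higher and 5 lower (median 0.36), and 9 to 28 were higher over 20 alternatives, with 9 without cells holding leukocyte or fibroblast transcripts and 16 without MI 255. S phase EC were chosen to hold fewer than 3 of the 7 genes, so the largest increases outside those genes again describe the classes. They were in Hmmr (6.40 ± 0.15, edgeR adjusted p = 2.85e-34), Ccnb1 (6.07 ± 0.12, edgeR adjusted p = 9.94e-37), Cenpe, a kinetochore motor (5.96), Aspm, a spindle pole protein (5.91), and Cdkn3, a phosphatase of Cdk1 (5.84).

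Endothelial genes were lower in G2 or mitosis than in S phase as well. Of 26 shared endothelial genes 13 were lower (median -0.25), of 18 resting capillary genes 12 (median -0.43), of 14 arterial genes 13 (median -0.62) and of 19 sprouting genes 13 (median -0.24), with none higher in any of these lists, beside 22.4% of all genes lower and 18.6% higher. Over 20 alternatives 8 to 14, 6 to 14, 6 to 15 and 4 to 16 of these genes were lower, with the lowest counts without the mouse as a block (the 4 sprouting genes also without cells holding leukocyte or fibroblast transcripts), and the 4 medians stayed below 0. Leaving out MI 244, MI 250 or MI 255 left 6, 7 and 7 sprouting genes lower. In the MI mice alone 2 shared endothelial and 1 capillary genes were higher, and at a threshold of 4 genes 1 shared endothelial gene. Cxcl12 was at 978, 968, 734 and 961 CPM in healthy and 444, 351, 343 and 622 CPM in MI S phase EC, which lies between the non-cycling and the G2 or mitosis values in each of the 8 mice (log2 difference from S phase -1.36 ± 0.13, edgeR adjusted p = 2.15e-06). Cdkn1c was at 214 to 357 CPM in healthy and 62.1 to 147 CPM in MI S phase EC, also between the other classes (-0.86 ± 0.18, edgeR adjusted p = 0.00537). Vim ran the other way, with 1591 to 2532 CPM in healthy and 3092 to 3499 CPM in MI S phase EC (0.58 ± 0.08, edgeR adjusted p = 3.22e-05). Ccnd1, the cyclin D1 of G1, was highest in S phase, at 310 to 564 CPM, against 214 to 364 CPM in G2 or mitosis (-0.79 ± 0.07, edgeR adjusted p = 3.04e-12). Cdkn1b was at 25.0 to 69.6 CPM in S phase and higher in G2 or mitosis (1.08 ± 0.10, edgeR adjusted p = 2.64e-12).

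Post-MI levels were then set against healthy ones within the cells in G2 or mitosis. Of 7240 genes tested 85 (1.17%) were higher and 117 (1.62%) lower post-MI, by edgeR's quasi-likelihood test on UMIs summed per mouse, and 913 (12.6%) had no overlap between the groups. The 4 healthy mice contributed 99 cells in all and Healthy 228 contributed 13. On simulated counts of this size the test recovered 35.4% of genes changed 2-fold and 100% of those changed 4-fold. In non-cycling EC of the same mice 1745 of 11752 genes (14.8%) were higher and 1705 (14.5%) lower. These counts come from very different numbers of cells and were not compared. Leaving out Healthy 228, Healthy 240, MI 244 or MI 255 gave 53, 35, 32 and 52 genes higher, and leaving out Healthy 227, Healthy 228, Healthy 240, MI 244 or MI 255 gave 59, 64, 76, 45 and 73 lower, and leaving out the deepest cells, which also took Healthy 228 below the minimum of 10 cells and out of the fit, gave 25 higher and 12 lower. With both copies of shared barcodes dropped, which left Healthy 227 and Healthy 240 as the healthy mice, 16 were higher and 18 lower. Of the genes named below, Vwf, Eno1, Aldoa, Tpi1, Pkm, Ldha, Irgm1, Cxcl10, Fbln2, Lyz2, Fcer1g, Ndc80, Rpl36-ps3 and Rpl13a-ps1 were then not called (edgeR adjusted p = 0.0681 to 0.189), while Capg, S100a6, Fam167b, Vcam1, Sox17, Wdr89 and Gm8186 were.

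Capg, an actin capping protein, was at 96.6, 44.4, 80.2 and 46.8 CPM in the healthy and 299, 202, 263 and 186 CPM in the MI cells in G2 or mitosis. The groups did not overlap (log2 difference 1.78 ± 0.25, edgeR adjusted p = 0.000971), and the call held in all 19 alternatives. S100a6, a calcium binding protein, was at 131, 44.4, 127 and 79.6 CPM against 424, 339, 537 and 306 CPM (1.98 ± 0.25, edgeR adjusted p = 0.000359). Irgm1, an interferon-induced GTPase, was at 9.36 to 62.1 CPM in healthy and 104 to 140 CPM in MI mice (2.20 ± 0.36, edgeR adjusted p = 0.00285). Fam167b was at 0 to 27.6 CPM against 80.8 to 96.8 CPM (2.67 ± 0.41, edgeR adjusted p = 0.00195). Each of these 4 genes was well separated between the groups, but S100a6, Irgm1 and Fam167b were not called once the deepest cells, and with them Healthy 228, were left out (edgeR adjusted p = 0.0737, 0.0656 and 0.115). Their differences were then 1.26, 2.23 and 3.30.

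Of 13 venous and venular genes 4 were higher and 1 lower post-MI in cells in G2 or mitosis (median 1.33, against -0.01 over all genes), beside 1.17% and 1.62% of all genes. Over 19 alternatives 0 to 7 were higher, with 0 without the deepest cells and 1 or 2 without any 1 healthy mouse, MI 244 or MI 255. Vwf, von Willebrand factor, was at 6.9, 11.1, 13.4 and 9.36 CPM in healthy and 54.2, 61.6, 104 and 46.9 CPM in MI mice (log2 difference 2.69 ± 0.58, edgeR adjusted p = 0.0193), with no overlap. Its call was lost without Healthy 227, Healthy 228, Healthy 239 or Healthy 240 (edgeR adjusted p = 0.0817, 0.0564, 0.0591 and 0.0858), and without the deepest cells (edgeR adjusted p = 0.244). Vcam1, an adhesion molecule that binds leukocytes, was at 48.3, 44.4, 66.8 and 60.9 CPM in the healthy and 158, 136, 165 and 131 CPM in the MI mice. No MI value came near the healthy ones (1.33 ± 0.22, edgeR adjusted p = 0.00359), while without cells holding leukocyte or fibroblast transcripts the difference was 0.64 (edgeR adjusted p = 0.379) and without the deepest cells 1.27 (edgeR adjusted p = 0.126). In non-cycling EC Vcam1 was at 51.4 to 84.1 CPM in healthy and 108 to 181 CPM in MI mice (0.94 ± 0.20, edgeR adjusted p = 0.00783), and the difference between the 2 contrasts, from a fit with a scaling of its own, did not pass the test (0.58 ± 0.25, edgeR adjusted p = 0.197), though it did against non-cycling EC within the depth range of the dividing cells (0.85, edgeR adjusted p = 0.0351). Plvap, the protein of fenestral diaphragms, was at 0, 0, 6.68 and 0 CPM in healthy and 411, 107, 576 and 122 CPM in MI cells in G2 or mitosis. Despite that separation it was not called (edgeR adjusted p = 0.12), and it was called by DESeq2 (adjusted p = 1.49e-05), at a threshold of 2 genes (edgeR adjusted p = 0.0218), without MI 250 (edgeR adjusted p = 0.0243) and without MI 256 (edgeR adjusted p = 0.0385).

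Of 12 arterial genes 1 was higher and none lower. Sox17 was at 27.6, 22.2, 73.5 and 37.5 CPM in healthy and 105, 93.4, 103 and 89.6 CPM in MI cells in G2 or mitosis (log2 difference 1.18 ± 0.27, edgeR adjusted p = 0.0207), and at 155 to 341 CPM and 211 to 230 CPM in non-cycling EC (-0.15 ± 0.20, edgeR adjusted p = 0.591). The contrast differed between the classes (1.52 ± 0.26, edgeR adjusted p = 1.1e-05), but not past the threshold without the deepest cells (1.12, edgeR adjusted p = 0.134) or without cells holding leukocyte or fibroblast transcripts (1.10, edgeR adjusted p = 0.0518). Without Healthy 227, Healthy 228, Healthy 240 or MI 244 the call within the dividing cells was lost (edgeR adjusted p = 0.0757, 0.0685, 0.0836 and 0.0534), as it was without the deepest cells, without cells holding leukocyte or fibroblast transcripts (0.66 and 0.93, edgeR adjusted p = 0.59 and 0.204) and by limma-voom (1.22, adjusted p = 0.0561). Of 12 glycolysis genes 5 were higher and none lower (median 0.41), beside 1.17% of all genes higher. Over 19 alternatives 0 to 6 were higher, with 0 without MI 244 and 1 to 3 without MI 255 or any 1 healthy mouse. Eno1, enolase 1, was at 173, 167, 93.5 and 108 CPM against 311, 219, 321 and 211 CPM (0.97 ± 0.22, edgeR adjusted p = 0.0195), with no overlap, and the call was lost without Healthy 239, Healthy 240, MI 244 or MI 255 (edgeR adjusted p = 0.0602, 0.074, 0.0686 and 0.0532), as well as without the deepest cells and without cells holding leukocyte or fibroblast transcripts (edgeR adjusted p = 0.154 and 0.0793). The other 4, Aldoa, Tpi1, Pkm and Ldha, were higher by 0.63 to 1.02. Leaving out 1 mouse lost these calls at edgeR adjusted p = 0.0529 to 0.12: for Ldha without Healthy 227 or MI 244, for Aldoa without Healthy 227, Healthy 228, Healthy 240 or MI 244, for Pkm without Healthy 227, Healthy 239, Healthy 240, MI 244 or MI 255, and for Tpi1 without each mouse other than MI 256. Aldoa, Pkm and Tpi1 were not called by limma-voom (adjusted p = 0.0952, 0.0832 and 0.0561), without the deepest cells (edgeR adjusted p = 0.522, 0.204 and 0.205) or without cells holding leukocyte or fibroblast transcripts (edgeR adjusted p = 0.126, 0.167 and 0.0524), and Eno1 not by limma-voom (adjusted p = 0.0586).

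Of 17 interferon response genes 8 were higher and 0 lower at an unadjusted p under 0.05. Over 19 alternatives 0 to 11 were called higher (median 0.67 to 1.76). The contrast was more positive than in non-cycling EC for 4 to 10 genes over 20 alternatives and more negative for none (median 0.50 to 1.38), beside 3.22% of all genes more positive. Cxcl10, an interferon-induced chemokine, was the gene that edgeR called among the 17 (median of the list 0.91), beside 1.17% of all genes higher. It was at 27.6, 0, 46.8 and 23.4 CPM in healthy and 132, 116, 178 and 80.2 CPM in MI cells in G2 or mitosis (log2 difference 2.21 ± 0.43, edgeR adjusted p = 0.0135). Without Healthy 227 or Healthy 240 the call was lost (edgeR adjusted p = 0.0794 and 0.099), as it was without cells holding leukocyte or fibroblast transcripts (1.26, edgeR adjusted p = 0.176) and without the deepest cells (2.22, edgeR adjusted p = 0.427), and by limma-voom (2.49, adjusted p = 0.0502). Of 10 endothelial-to-mesenchymal genes edgeR called 1 higher, beside 1.17% of all genes, and 0 to 5 were called over 19 alternatives. The called gene was Fbln2, the matrix protein fibulin 2, at 48.3, 0, 26.7 and 32.8 CPM against 168, 151, 331 and 188 CPM (2.75 ± 0.47, edgeR adjusted p = 0.00963). Its call was lost without Healthy 227, Healthy 239 or Healthy 240 (edgeR adjusted p = 0.0589, 0.0679 and 0.0974). Of 18 sprouting genes and 18 resting capillary genes none were called in either direction by edgeR (medians -0.04 and -0.08). At an unadjusted p under 0.05 there were 4 higher and 3 lower sprouting genes and 1 higher and 1 lower capillary gene. DESeq2 called 3 higher and 1 lower sprouting genes and 1 lower capillary gene, and limma-voom called 1 higher sprouting gene and no capillary gene.

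Of 6 leukocyte markers tested, 6 were higher post-MI in the same cells at an unadjusted p under 0.05 (median 3.48). EdgeR called 2 of them, beside 1.17% of all genes higher, and over 18 alternatives 0 to 7 of those tested were called. The 2 were Lyz2 and Fcer1g, a subunit of Fc receptors. The call of Fcer1g was lost without Healthy 227, Healthy 228 or Healthy 240 (edgeR adjusted p = 0.094, 0.0763 and 0.12), at a threshold of 4 genes (edgeR adjusted p = 0.052) or without the deepest cells (edgeR adjusted p = 0.533). Fcer1g was below the count filter without MI 244, MI 250, MI 255 and MI 256. Lyz2, lysozyme 2 of macrophages, was at 6.90, 0, 13.4 and 9.36 CPM in healthy and 290, 139, 250 and 112 CPM in MI cells in G2 or mitosis (log2 difference 4.52 ± 0.69, edgeR adjusted p = 0.00878). The groups were far apart, and the call was lost without Healthy 227, Healthy 239 or Healthy 240 (edgeR adjusted p = 0.0794, 0.0517 and 0.0945). Non-cycling EC held 15.1 to 130 CPM of Lyz2 in healthy and 228 to 803 CPM in MI mice.

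No gene of the dividing machinery was called higher post-MI in the dividing cells by edgeR, and some were lower. These genes share their phase with the 7 choosing genes. The healthy cells chosen were shallower (mean of the median UMIs per cell 5693, against 7217 in MI mice), so the rule can act differently on the 2 groups. Its part in the values below was not tested. Of 22 kinases and cyclins none were higher and 1 lower (median -0.33), of 28 kinetochore genes 5 were lower (median -0.46), of 36 spindle genes 5 (median -0.44), of 24 mitotic chromatin genes 2 (median -0.39) and of 46 DNA replication genes 3 (median -0.42), beside 1.62% of all genes. At an unadjusted p under 0.05 there were 9, 16, 19, 15 and 11 lower, and 1 mitotic chromatin gene higher. DESeq2 called 2, 10, 8, 7 and 4 lower and limma-voom 1, 4, 5, 3 and 3, with none higher. Over 19 alternatives 0 to 7, 0 to 13, 0 to 16, 0 to 10 and 0 to 5 were lower, with the highest counts at a threshold of 2 genes and no kinase, kinetochore or spindle gene called without the deepest cells. With no filter on low counts 1 DNA replication gene was higher. Leaving out Healthy 227, Healthy 228 or MI 244 left 2 kinetochore genes and 1 spindle gene lower, leaving out Healthy 240 left 3 and 2, and leaving out MI 250 or MI 255 left 2 and 1 spindle genes. The median of the kinases and cyclins was 0.25 without the deepest cells, and that of the replication genes 0.01 without Healthy 240, and the other 3 medians stayed below 0. Ccnb1 averaged 236 ± 64.2 CPM in healthy and 258 ± 34.3 CPM in MI mice (SD, n = 4 each, log2 difference 0.09 ± 0.19, edgeR adjusted p = 0.868). Ndc80, a kinetochore subunit that binds microtubules, was lower (-0.82 ± 0.17, edgeR adjusted p = 0.0105), a call lost without Healthy 240 (edgeR adjusted p = 0.0561) and without the deepest cells (edgeR adjusted p = 0.443). Top2a, topoisomerase IIα, which was kept at 0 in the non-cycling cells and so carries no test, averaged 946 ± 222 CPM in healthy and 528 ± 54.1 CPM in MI mice.

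Among the genes that were lower post-MI, Wdr89 was at 1077, 1178, 655 and 787 CPM in the healthy and 206, 268, 220 and 327 CPM in the MI cells in G2 or mitosis (log2 difference -1.90 ± 0.19, edgeR adjusted p = 6.3e-05). Gm8186 was at 393, 411, 301 and 304 CPM against 103, 126, 81.1 and 151 CPM (-1.66 ± 0.20, edgeR adjusted p = 0.000147). Both were called in all 19 alternatives, and both were also lower in non-cycling EC (-1.60 and -1.34, edgeR adjusted p = 0.00278 and 0.00828). The 10 largest decreases by the naming rule were Wdr89 and 9 genes with names of predicted genes or of pseudogenes of ribosomal proteins, such as Rpl36-ps3 and Rpl13a-ps1. The call of Rpl36-ps3 was lost without Healthy 227, MI 244 or MI 250 (edgeR adjusted p = 0.126, 0.0676 and 0.0506), and that of Rpl13a-ps1 without Healthy 227, Healthy 228, Healthy 239, MI 244 or MI 255 (edgeR adjusted p = 0.0952, 0.0735, 0.068, 0.0551 and 0.0507). Without the deepest cells Rpl36-ps3 was at -1.13 (edgeR adjusted p = 0.184) and Rpl13a-ps1 at -0.76, against -1.68 with them (edgeR adjusted p = 0.496 and 0.0195), and Rpl36-ps3 was also lost at a threshold of 4 genes (edgeR adjusted p = 0.0655). Reads of such copies can be assigned to more than 1 gene, so their values are uncertain.

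Capillary genes differed in how they moved between the classes. The 18 resting capillary genes, of which none were called post-MI in the dividing cells, had 11 genes lower and none higher post-MI in non-cycling EC (median -0.68), beside 14.5% of all genes lower there. The difference between the contrasts was tested with the mouse as a block, and 371 of 11533 genes (3.22%) had a more positive contrast in cells in G2 or mitosis and 175 (1.52%) a more negative one, with a median of 0.19 over all genes. This fit scales both classes together, while the contrasts within each class were fitted and scaled on their own (median -0.01 over all genes in both), so a difference given here is not the subtraction of the 2 contrasts beside it. By DESeq2 the split was 86 and 211 genes, by limma-voom 217 and 429, and with both copies of shared barcodes dropped 189 and 109. Of the 18 capillary genes 12 had a more positive contrast and none a more negative one (median 0.80, and 0.62 by DESeq2, with 9 called, and 12 without the non-cycling EC that also met the S phase rule), and of 26 shared endothelial genes 9 and none (median 0.43). Over 20 alternatives 6 to 13 capillary and 5 to 14 shared endothelial genes were more positive. No capillary gene and at most 1 shared endothelial gene was more negative in them. Cd36, with the values above, had contrasts of -0.11 ± 0.17 in the dividing cells (edgeR adjusted p = 0.807) and -0.62 ± 0.20 in non-cycling EC (edgeR adjusted p = 0.0456), and the contrasts differed by 0.72 ± 0.11 (edgeR adjusted p = 6.93e-06). For Cxcl12 the contrasts were -0.36 ± 0.18 (edgeR adjusted p = 0.307) and -1.11 ± 0.17 (edgeR adjusted p = 0.00224), with a difference of 0.97 ± 0.15 (edgeR adjusted p = 1.11e-06), which was 0.40 without cells holding leukocyte or fibroblast transcripts (edgeR adjusted p = 0.382) and 0.62 at a threshold of 2 genes (edgeR adjusted p = 0.166). These genes were thus low in dividing cells of both groups, and lower post-MI in non-cycling EC. For Vim, 0.05 ± 0.13 in dividing cells stood beside 1.18 ± 0.13 in non-cycling EC, a difference of -0.94 ± 0.12 (edgeR adjusted p = 1.86e-06), and of -0.76 against non-cycling EC within the depth range of the dividing cells (edgeR adjusted p = 0.0706) and -0.79 with both copies of shared barcodes dropped (edgeR adjusted p = 0.0679).

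In non-cycling EC 14 of 20 genes of sprouting and tip cells were higher post-MI and 1 was lower (median 0.66), beside 14.8% of all genes called higher there. In cells in G2 or mitosis edgeR called none of the 18 that were tested (median -0.04), with 4 higher and 3 lower at an unadjusted p under 0.05, and DESeq2 called 3 higher and 1 lower. The contrast was more negative in the dividing cells for 4 of the 20 by edgeR and for 7 by DESeq2, and more positive for none by either (median -0.41, and -0.58 to 0.06 over 20 alternatives, so that its sign is not fixed). Sparc, a matricellular protein, was at 2705, 3500, 4075 and 3905 CPM in the healthy and 4445, 4248, 4049 and 3304 CPM in the MI cells in G2 or mitosis, and these groups overlapped. The non-cycling EC of the same mice held 1948, 1688, 2201 and 2280 CPM and 5000, 4648, 4700 and 3216 CPM, with no overlap between the groups. The contrasts were 0.12 ± 0.13 and 1.04 ± 0.14 (edgeR adjusted p = 0.7 and 0.00108), and the difference between them, -0.73 ± 0.10 (edgeR adjusted p = 6.56e-08), was called in all 20 alternatives. Cd34, a sialomucin of endothelial and progenitor cells, was at 669, 811, 1016 and 974 CPM and 1038, 1041, 858 and 803 CPM in cells in G2 or mitosis of healthy and MI mice, against 622, 564, 754 and 749 CPM and 1299, 1203, 1133 and 920 CPM in non-cycling EC. Its difference between contrasts of -0.46 ± 0.11 (edgeR adjusted p = 0.00432) was lost without the deepest cells (-0.16, edgeR adjusted p = 0.707) and with both copies of shared barcodes dropped (-0.37, edgeR adjusted p = 0.11). The other 2 genes were Nid2, a basement membrane protein (-1.01), whose call was lost without Healthy 227 or Healthy 240 (edgeR adjusted p = 0.0837 and 0.0596) and at a threshold of 4 genes (edgeR adjusted p = 0.0539), and Ift122 (-0.94), whose call was lost without Healthy 240 (edgeR adjusted p = 0.0507). Both calls were lost without the deepest cells (-0.96 and -0.43, edgeR adjusted p = 0.272 and 0.545), so that 3 of these 4 genes lost their call there.

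**Figure D5:**
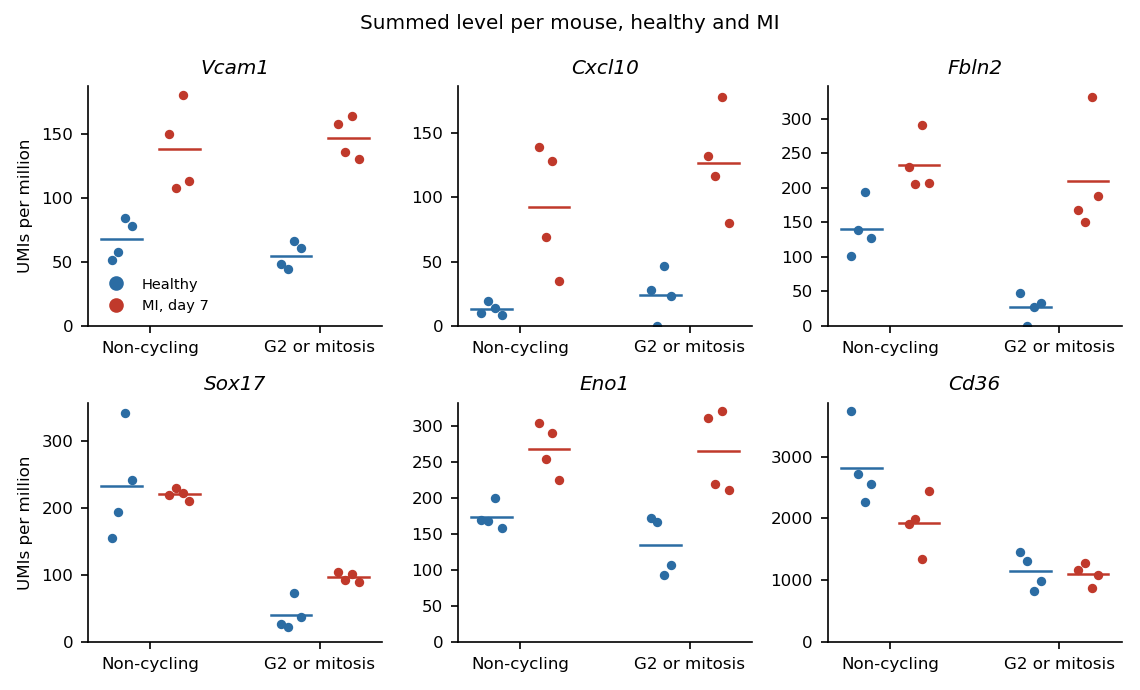
CPM of Vcam1, Cxcl10, Fbln2, Sox17, Eno1 and Cd36 in non-cycling EC and in cells in G2 or mitosis, with 1 point per mouse (blue healthy, red MI) and a line at each group's mean. The groups separate in cells in G2 or mitosis for Vcam1, Cxcl10, Fbln2, Sox17 and Eno1, while Cd36 overlaps at means of 1150 CPM in healthy and 1102 CPM in MI mice.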

How the data were processed

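Single EC from ventricles of 4 healthy and 4 MI mice were sequenced with the 10X Genomics Chromium Single Cell 3' assay. The authors deposited counts of UMIs for 16791 genes in 31028 cells as 1 table without normalization. Their processing notes name Cell Ranger, the mm10 genome, R 3.5.2 and Seurat 2.3, and the study's methods give Cell Ranger 2.1.0 with the Ensembl 84 annotation. Cells had been filtered before deposit: the fewest genes in a cell were 403, and the largest mitochondrial share of UMIs was 19.96%. How reads on more than 1 gene were counted, and whether strand was used, is not given in the sources used here. Cells were assigned to mice by the names in the table and to groups by the labels.

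The classes of cells, the gene lists and the tests were chosen with earlier results of these data known, and no list is independent evidence. UMIs were summed per mouse and class. Sums were tested with edgeR 4.0.16 in R 4.3.3 (TMM scaling, filterByExpr, quasi-likelihood test, Benjamini-Hochberg adjustment over all genes tested at 0.05), with the mouse as a block where classes of the same mice were compared, since both classes come from the same animal. All 8 mice entered every comparison, with a minimum of 10 cells per mouse. Genes used by the rule (for the comparison with S phase, those of both rules) got no call. Errors of log2 differences (SE) are approximate. Each is the size of the difference divided by the square root of its quasi-likelihood F statistic. The p-values treat each library as a separate mouse and measure the spread between them. Shared barcodes leave it uncertain whether some healthy libraries are independent. Shares and ratios per mouse were compared by two-sided exact permutation tests, with scipy 1.17.1, numpy 2.4.6, matplotlib 3.10.9 and pandas 2.3.3 in Python 3.11.15. On simulated counts edgeR recovered 97% of 2-fold and 100% of 4-fold changes in the comparison with non-cycling EC, 92.9% and 100% in that with S phase EC, 35.4% and 100% between MI and healthy cells in G2 or mitosis, and 25% and 86% for the difference between contrasts.

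Genes were eligible to be named if called, at a mean of 50 CPM or more and with 1 direction in every mouse (no overlap for unpaired groups). A selection of the 10 highest and 10 lowest differences is given, beside list genes that a result turns on. Choosing genes, and for non-cycling EC the cell cycle lists, were left out of the first part of the rule. Fcer1g, Plvap, Gja5, Apln and genes described as not called were singled out after their values were seen.

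Alternatives were DESeq2 1.42.0, limma-voom (limma 3.58.1), no filter on low counts, no block, MI mice alone, thresholds of 2 or 4 genes, non-cycling cells within the depth range of the dividing cells (between the 10th and 90th percentile of UMIs of the dividing cells of that mouse), shared barcodes kept, a covariate for Xist between unpaired groups, at least 20 cells per mouse, each mouse left out, and cells above the 95th percentile of UMIs, called the deepest cells, left out. No doublet caller was run. Cells holding a UMI of C1qa, C1qb, C1qc, Csf1r, Lyz2, Dcn, Col1a1 or Col3a1 (leukocyte or fibroblast transcripts) were left out as a further alternative, which for the share of cells was added after seeing the data. Dropping both copies of shared barcodes, and leaving S phase cells out of the non-cycling EC (which bears on 2 comparisons), were added after seeing the data. Dropping both copies took Healthy 228 and Healthy 239 out of the fits. Leaving out the deepest cells, or asking for 20 cells per mouse, dropped Healthy 228 from the fits.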

Additional observations from a re-analysis of the deposited data

Results flagged for a closer look

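In cells in G2 or mitosis 7 values of the named genes stood further from the other mice of their group than Dixon's 95% critical value for 4 samples, 0.83 of the group's range, allows. The named genes, 46 for the comparison with non-cycling EC alone, were examined in both groups wherever the group's mean was 50 CPM or more. Chance alone singles out about 1 in 20 such groups, so a few flagged values can be chance. Cdk4 was at 302.7 CPM in MI 244, against 251 to 253 CPM in the other MI mice. Esco2 was at 58.15 CPM in the same mouse, against 77.8 to 81.1 CPM, and Hmmr at 146.6 CPM, against 190 to 195 CPM. Cdkn2d was at 426.1 CPM in Healthy 240, against 254 to 262 CPM in the other healthy mice. Nid2 was at 44.45 CPM in Healthy 228, against 100 to 110 CPM, and Rpl13a-ps1 at 130.5 CPM in MI 256, against 62.4 to 70.7 CPM. Rpl7 was at 1210 CPM in MI 250, against 1153 to 1161 CPM.

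Genes were named in part for their differences in fits to the same data, so a count among them says nothing about them as a set. The log2 difference between MI and healthy mice was not the same in cells in G2 or mitosis as in non-cycling EC for 31 of the named genes (interaction term of edgeR's quasi-likelihood test, adjusted p = 1.18e-08 to 0.0489). Of all 11533 genes tested it was more positive in the dividing cells for 3.22% and more negative for 1.52%, with a median of 0.19. Among vascular genes it was more positive in the dividing cells by Aqp7 1.289, Cd36 0.7189, Cxcl12 0.9669, Emcn 0.5695, Epas1 0.5704, Fbln2 2.172, Flt1 1.326, Ly6c1 0.6929, Rgcc 1.2 and Sox17 1.518. Among the others it was more positive by Aldoa 0.875, Ccnd2 0.93, Cdkn1c 1.046, Eno1 0.5745, Irgm1 1.239, Ldha 0.5401, Pttg1 0.8018 and S100a6 0.9666. It was more negative for 6 mitotic genes, by Aspm -2.425, Ccnb1 -2.726, Cdkn3 -3.774, Cenpe -2.318, Hmmr -4.081 and Plk1 -1.914, and for the DNA glycosylase Neil3 by -2.688 and the Max partner Mxd3 by -3.25. These 8 were at 3.91 CPM or less in the non-cycling EC of each mouse, which were chosen to lack such transcripts, so their differences rest on levels that the choice keeps near 0 and nothing is read from them. It was also more negative by Cd34 -0.4591, Ift122 -0.9403, Nid2 -1.009, Sparc -0.7253 and Vim -0.9394.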

How the results depend on the processing

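The share of EC in G2 or mitosis was higher in MI than in healthy mice by 7.77 percentage points, and by 6.53 (without MI 244) to 9.06 (without MI 256) when 1 mouse was left out. Without any 1 healthy mouse the groups did not overlap, and the exact permutation p was 0.0571. Counts of genes below are given as higher and lower. Against non-cycling EC they were 2334 and 2594, and 1372 and 1364 without cells holding leukocyte or fibroblast transcripts. Leaving out 1 mouse gave 1923 to 2391 and 2087 to 2583. Against S phase they were 1415 and 1706, 533 and 521 without those cells, and 1128 lower with at least 2 of the 7 genes. Leaving out 1 mouse gave 908 to 1658 and 892 to 1901, with counts more than 1.5 times smaller without MI 244 (925 and 943), MI 250 (909 and 892) or MI 255 (908 and 896), and for lower also without MI 256 (998).

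Post-MI within cells in G2 or mitosis the counts were 85 and 117 by edgeR. They were 139 and 249 by DESeq2, 317 and 177 with no filter on low counts, 171 and 234 with at least 2 of the 7 genes, 25 and 12 without the deepest cells, 31 and 48 without cells holding leukocyte or fibroblast transcripts, and 53 and 64 with at least 20 cells per mouse, and 16 and 18 with both copies of shared barcodes dropped, which leaves 2 healthy mice. Leaving out 1 mouse gave 32 to 80 and 45 to 152, with counts more than 1.5 times smaller without Healthy 228 (53 and 64), Healthy 240 (35 and 76), MI 244 (32 and 45) or MI 255 (52 and 73), and for lower also without Healthy 227 (59). For the difference between contrasts they were 371 and 175. DESeq2 gave 86 and 211, limma-voom 217 and 429, the setting without leukocyte or fibroblast transcripts 83 and 116, and that with both copies dropped 189 and 109. The lower count was 113 against non-cycling EC within the depth range of the dividing cells, 285 with at least 2 of the 7 genes and 68 without the deepest cells, and the higher count 236 with at least 20 cells per mouse. Leaving out 1 mouse gave 236 (without Healthy 228) to 481 and 120 to 259. The cause of these changes was not tested. Without the deepest cells or with at least 20 cells per mouse Healthy 228 left the post-MI fits.

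Without the replicate block, which pairs the cells of a mouse, the counts were 1730 and 1856 against non-cycling EC and 850 and 715 against S phase, and 70.4% and 50.1% of the blocked calls were kept. For MI against healthy there is no such block. No paired analysis was possible because healthy and MI mice share no replicate number.

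The median over all genes moved by more than 0.1 with no filter post-MI (to 0.30) and without the deepest cells (to 0.19). For the difference between contrasts it went from 0.19 to -0.00 by DESeq2, 0.02 by limma-voom, 0.05 without leukocyte or fibroblast transcripts and 0.47 without the deepest cells. Of the named genes 39 of 46 against non-cycling EC, 11 of 12 against S phase, 7 of 26 post-MI and 2 of 9 in the difference between contrasts kept their call in all 22, 20, 19 and 20 alternatives, and no direction of a call was turned. The healthy mice held 13 to 33 cells in G2 or mitosis with 89991 to 213563 UMIs in all, which limits the post-MI test, and the MI mice 152 to 493 cells with 1172368 to 4264616.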

Other observations

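Most genes carried by the mitochondrial genome were lower in cells in G2 or mitosis. Of the 13 protein-coding ones 11 were lower than in non-cycling EC and none higher (median -0.37, against -0.04 over all genes, with -0.42 to -0.25 over 22 alternatives), beside 24.0% of all genes called lower. Against S phase 11 were lower as well (median -0.25), and 0 to 11 over 20 alternatives. mt-Nd2, a subunit of complex I, was at 533 to 1091 CPM in cells in G2 or mitosis and 643 to 1854 CPM in non-cycling EC of the 8 mice (-0.60 ± 0.11, edgeR adjusted p = 0.000354). mt-Nd4, another subunit of complex I, was at 1323 to 2444 CPM and 1803 to 3236 CPM (-0.49 ± 0.08, edgeR adjusted p = 1.43e-05). Of 86 nuclear genes of oxidative phosphorylation 16 were higher and 14 lower (median 0.02), below the 21.6% and 24.0% of all genes. Per cell, the median mitochondrial percentage of UMIs was lower than in non-cycling EC in 7 of 8 mice, with a mean difference of -0.10 ± 0.38 percentage points (SD, n = 8, exact two-sided sign-flip permutation p = 0.461).

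Against cells in S phase 38 of 78 cytosolic ribosomal protein genes were lower and 1 was higher (median -0.13, against -0.04 over all genes, with 13 to 61 lower over 20 alternatives), beside 22.4% of all genes called lower. Against non-cycling EC 17 were lower and 3 higher, beside 24.0% and 21.6% of all genes, so the share that was lower is no more than that of all genes (median -0.03, with -0.17 to 0.00 over 22 alternatives). Rpl7, a protein of the large subunit, was at 979 to 1278 CPM in cells in G2 or mitosis and 1354 to 1656 CPM in S phase, with no overlap (-0.40 ± 0.06, edgeR adjusted p = 3.37e-07). Rps21, of the small subunit, was at 533 to 1133 CPM and 711 to 1659 CPM (-0.46 ± 0.06, edgeR adjusted p = 1.58e-08), a call lost without the replicate block (edgeR adjusted p = 0.0694). These 4 genes were chosen after their values were seen.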
